A study of Homo sapiens with 12 samples.

Results

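The BCL2 family of apoptosis regulators was followed through 10 genes: the pro-survival members BCL2, BCL2L1 (BCL-XL), BCL2L2 (BCL-W) and MCL1, the pore-forming effectors BAX and BAK1, and the BH3-only members BID, BCL2L11 (BIM), BBC3 (PUMA) and PMAIP1 (NOXA). The rule that chose them goes by symbol and uses no measured value, but the members were chosen with earlier results of these data known. They make up 10 of the 60605 genes in the deposited table. Each symbol matched 1 gene ID, and all 10 passed the filter on low counts. RNA sequencing was done in SBC5, an established cell line of human small cell lung cancer labelled as wild type. Olaparib, which blocks PARP1 and PARP2, enzymes of DNA repair, or its solvent DMSO was given 2 hours before irradiation, and RNA was collected after 3 days. The 4 groups of 3 libraries were vehicle (DMSO, 0 Gy), olaparib (1 µM, 0 Gy), radiation (DMSO, 4 Gy of gamma rays) and the combination (olaparib 1 µM and 4 Gy). The stated purpose was to find the genes whose expression changes under olaparib with radiation. All groups are the same single line, and the sources do not say whether the libraries of a group came from separate cultures, so p-values measure only the spread between these libraries.

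Cells commit to mitochondrial apoptosis when BAX or BAK1 oligomerise and open the outer mitochondrial membrane, which releases cytochrome c. Pro-survival members hold the effectors and the BH3-only members in inactive complexes. BH3-only members are switched on by stress and occupy the groove of the pro-survival proteins, each with its own preferences: PMAIP1 binds chiefly MCL1, BCL2L11 and BBC3 bind all of the pro-survival members, and BID is activated by cleavage downstream of death receptors. MCL1 is a short-lived protein, much of whose control lies in its degradation, which RNA levels do not show.

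The deposited values are estimated counts, which sum, in units of 1e6, to between 14.3 and 38.8 per library, and the vehicle libraries (27.0 to 34.1) were deeper than the combination libraries (19.4 to 20.6). Levels are given as scaled CPM, estimated counts per 1e6 counts with TMM scaling, which corrects for composition. In 3 libraries (olaparib 2 and 3 and radiation 3) olfactory receptor genes, 404 in all and silent in most tissues, summed to 1897, 2098 and 920.2 CPM, against 354.7 to 501.3 in the other 9. Those 3 are kept out of the main tests, on 9 libraries, and shown apart, and values from fits of all 12 libraries are named as such. The main tests thus rest on 3 vehicle, 1 olaparib, 2 radiation and 3 combination libraries. Summed leukocyte markers were 0.762 to 3.01 CPM in the 9 libraries, with 3 to 7 of the 8 markers at 0, and 8.46 to 34.3 CPM in the 3 set apart. Fibroblast markers summed to 15.5 to 21.1 CPM against 28.7 to 70.6, and endothelial markers to 1.11 to 3.33 against 13.1 to 44.6. Most of the fibroblast sum in the 9 libraries was COL1A1, with group means of 11.7 to 14.6 scaled CPM. LUM was at most 0.477 and PDGFRB at most 0.392 scaled CPM there. Of the lineage markers of small cell lung cancer, YAP1 lay at 90.3 to 116 CPM and SYP at 17.7 to 25.6 in the 9 libraries, while INSM1 was at most 0.306 and CHGA at most 0.583 CPM. The neuroendocrine markers INSM1 and CHGA were therefore near 0 in a line labelled small cell lung cancer. SYP, also a neuroendocrine marker, was not. In bulk RNA, fewer cells of a type and less RNA per cell cannot be told apart.

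Upstream sequence is shown for the 3 BH3-only genes whose RNA is known to be induced by stress: PMAIP1, the member that rose, BCL2L11, and BBC3, which did not pass the test in any comparison. The stretches come from the RefSeq promoter table for GRCh38.p14, which matched 8 of the 10 members. Each stretch was trimmed to the longest part outside the exons of any gene in GENCODE 29. Those of PMAIP1 and BBC3 lie before the annotated gene, while that of BCL2L11 lies inside it, between the exon of an upstream start (gene start 111119378) and the next exon. They are BCL2L11 at chr2:111120664-111120913 on the plus strand, PMAIP1 at chr18:59899746-59899947 on the plus strand and BBC3 at chr19:47232767-47232917 on the minus strand, each read 5′ to 3′ in the sense of its gene. Capitals mark motif matches: the FOXO motif in BCL2L11, the CRE core in PMAIP1, and an E-box followed by an AP-1 motif in BBC3.
BCL2L11: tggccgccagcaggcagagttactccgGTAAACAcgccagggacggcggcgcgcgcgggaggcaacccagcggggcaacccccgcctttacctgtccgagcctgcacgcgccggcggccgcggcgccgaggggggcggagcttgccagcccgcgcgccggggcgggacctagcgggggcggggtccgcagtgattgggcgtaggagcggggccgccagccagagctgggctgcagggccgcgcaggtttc
PMAIP1: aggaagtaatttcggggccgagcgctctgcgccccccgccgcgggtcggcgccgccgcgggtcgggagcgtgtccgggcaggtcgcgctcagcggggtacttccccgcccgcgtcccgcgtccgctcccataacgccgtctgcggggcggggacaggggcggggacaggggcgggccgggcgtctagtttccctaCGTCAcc
BBC3: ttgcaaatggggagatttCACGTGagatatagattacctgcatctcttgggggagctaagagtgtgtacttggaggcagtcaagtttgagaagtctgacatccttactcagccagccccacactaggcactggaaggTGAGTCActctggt
The motifs searched, on both strands of the 250 bases before each start, were the cAMP response element CRE (TGACGTCA), its core TGACG, which the full CRE contains, the CARE of ATF4 and DDIT3 (TGATGNAA), AP-1 (TGANTCA), FOXO (GTAAACA), the E-box (CACGTG) and the p53 decamer. In PMAIP1 the CRE core lay at -55, in BCL2L11 the FOXO motif at -223, and in BBC3 the E-box at -232 and AP-1 at -113 from the RefSeq start. Over 35116 windows of the same length, 21.2% held the CRE core, 2.98% the FOXO motif, 6.34% the E-box and 6.57% AP-1, while 1.65% held the full CRE, 3.14% the CARE and 5.57% the p53 decamer. None of these last 3 motifs had a match in the 3 genes' windows, which says only that these letters are not there. A match is a run of letters and not a measured binding site.

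MCL1 was the most abundant member per length of transcript in every group. In vehicle its level was 82.1 scaled CPM per kb of its longest coding transcript (79.9 to 86.1), and BCL2L2 followed at 7.40 (7.13 to 7.89). Next came PMAIP1 at 3.69 (3.50 to 3.86) and BAX at 3.64 (2.77 to 4.52), whose ranges overlapped, and then BCL2L11 at 2.27 (2.09 to 2.52). BCL2L1 at 1.81 (1.41 to 2.33) overlapped with BCL2L11 above it and BID below it. BID at 1.17 (0.834 to 1.43), BBC3 at 1.14 (0.960 to 1.39) and BAK1 at 1.00 (0.815 to 1.23) overlapped with each other. BCL2, the founding member, was lowest at 0.173 scaled CPM per kb (0.0721 to 0.227), below every other member in each vehicle library. In the combination the level of MCL1 per kb was 63.7 (61.0 to 67.5), and the ranges of BCL2L2 at 6.28 (5.34 to 6.90) and PMAIP1 at 6.0 (5.33 to 7.24) overlapped, which they did not in vehicle.

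**Figure D1:**
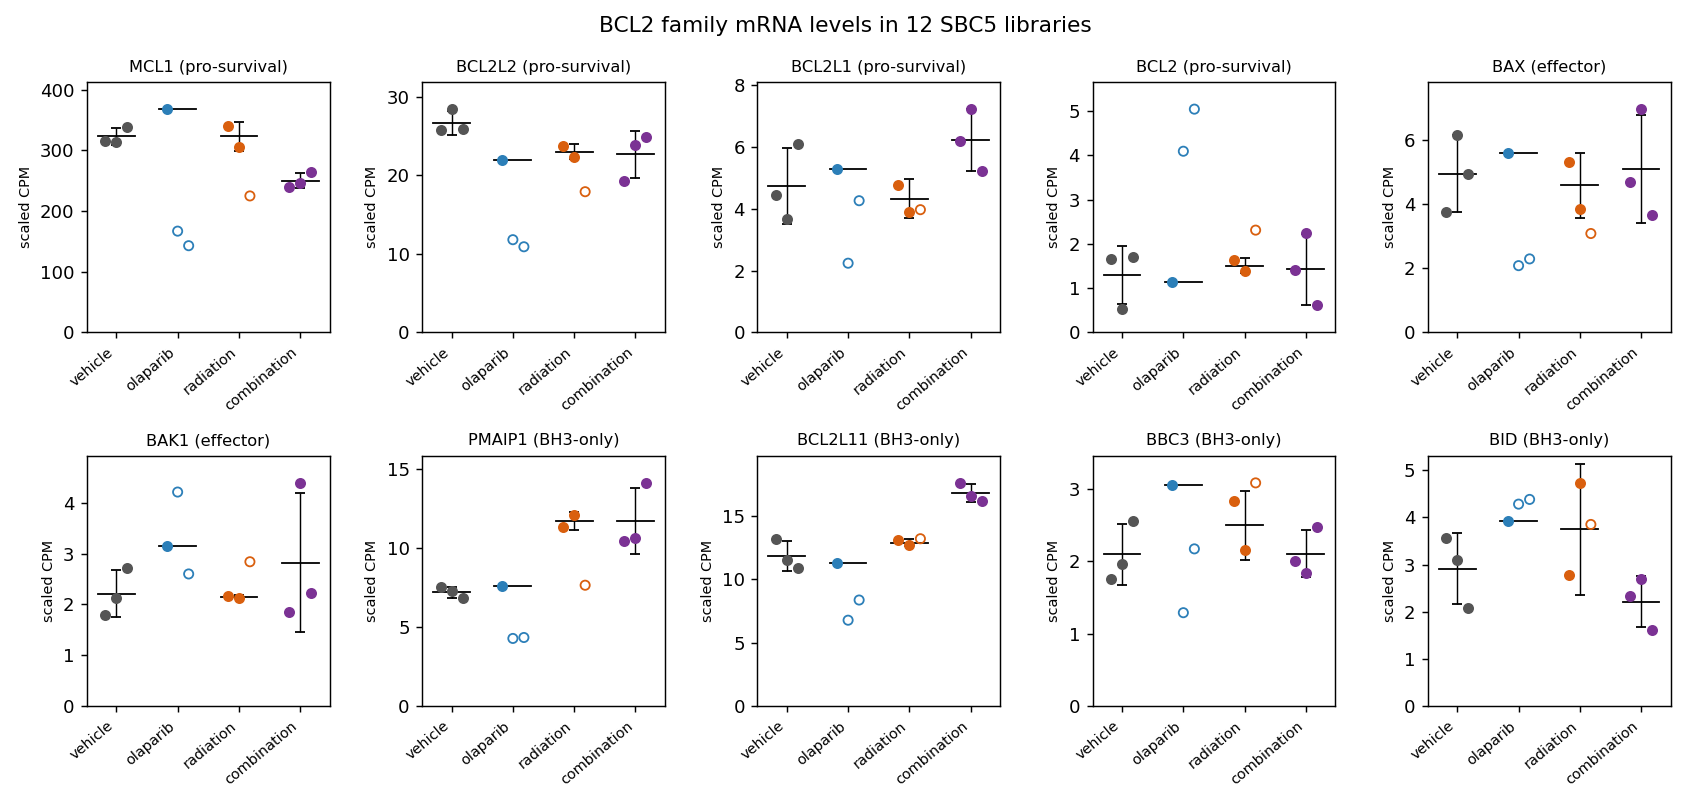
Scaled CPM of each of the 10 members (vertical axes, each from 0) in the 4 groups. Filled points are the 9 libraries tested, open points the 3 set apart, bars the group mean with the SD where a group has more than 1 filled point; the combination points of MCL1 (240 to 265) lie below every vehicle point (314 to 339), and those of PMAIP1 (10.4 to 14.1) above every vehicle point (6.82 to 7.53).

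Under olaparib with radiation, MCL1 RNA fell and PMAIP1 RNA rose against vehicle, and the other 8 members did not pass the test. That is 2 of 10 members called, against 4.8% of the 30967 genes tested (1.53% higher and 3.26% lower). At an unadjusted p under 0.05 there were 3 members, against 14.4% of genes. The vehicle and combination libraries did not overlap for 4 of the 10 members (MCL1, BCL2L2, PMAIP1 and BCL2L11), against 19.5% of all genes. The median log2 change was -0.05 over the pro-survival members and 0.20 over the pro-death members, beside 0.02 over all genes. The share of all genes called depends on the count filter, and with a stricter filter edgeR called 1535 of 19276 genes. There BCL2L11 (adjusted p = 0.0369) passed as well as MCL1 and PMAIP1.

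MCL1, which keeps BAK1 and BCL2L11 in check, was measured at 316, 314 and 339 scaled CPM in the 3 vehicle libraries and at 240, 246 and 265 in the 3 combination libraries. The radiation libraries held 340 and 306, and the olaparib library 368. All 3 combination libraries lay below all 6 others. Group means were 323 ± 13.7 (SD, n = 3) in vehicle and 250 ± 13.3 (SD, n = 3) in the combination, a log2 change of -0.37 (SE 0.0679, edgeR adjusted p = 8.45e-05). Without scaling factors the ranges were still apart, at 295 to 310 against 253 to 285 CPM, but the change was -0.17 and the adjusted p 0.105, while the median of all genes moved from 0.02 to 0.22. The call was also lost in the fit of all 12 libraries (-0.37, adjusted p = 1) and in that fit with the olfactory receptor sum as a covariate (-0.23, adjusted p = 0.0942).

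BCL2L2 was at 25.7, 28.4 and 25.9 scaled CPM in vehicle and at 19.2, 23.8 and 24.9 in the combination. The groups did not overlap, but the log2 change of -0.24 (SE 0.127) had an adjusted p of 0.408. BCL2L2 shares exons with the read-through gene BCL2L2-PABPN1, so its counts are uncertain. BCL2L1, the BCL-XL gene, was at 4.43, 3.67 and 6.08 scaled CPM in vehicle and at 6.19, 7.22 and 5.23 in the combination, and these overlapped (log2 change 0.39, SE 0.263, adjusted p = 0.569). BCL2 was at 1.65, 0.538 and 1.70 in vehicle and at 1.41, 2.24 and 0.618 in the combination, from 13 to 53 counts a library, and the SE of 0.528 exceeded its log2 change of 0.14.

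The effectors did not pass the test. BAX was at 3.76, 6.14 and 4.93 scaled CPM in vehicle and at 4.68, 6.95 and 3.66 in the combination, a log2 change of 0.04 (SE 0.274). BAK1 was at 1.80, 2.12 and 2.72 in vehicle and at 1.85, 4.39 and 2.23 in the combination, a log2 change of 0.35 (SE 0.378). Both genes overlapped between the groups, and the second combination library was the highest of the 9 for each.

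Of the BH3-only members, PMAIP1, the partner of MCL1, was at 7.53, 7.25 and 6.82 scaled CPM in vehicle and at 10.4, 10.6 and 14.1 in the combination. The groups did not overlap, and the mean rose from 7.20 ± 0.357 to 11.7 ± 2.10 (SD, n = 3 each), a log2 change of 0.70 (SE 0.194, edgeR adjusted p = 0.0168). The third combination library was highest, and without it the change was 0.53 and the adjusted p 0.229. The call was also lost without the second (adjusted p = 0.0609) or the third vehicle library (0.0768), with limma-voom (0.0509) and with all 12 libraries (0.70, adjusted p = 1).

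BCL2L11, which encodes BIM, was at 13.2, 11.5 and 10.9 scaled CPM in vehicle and at 17.6, 16.6 and 16.2 in the combination. All 3 combination libraries lay above all of the other 9 libraries, the 3 set apart included. The means were 11.9 ± 1.17 and 16.8 ± 0.687 (SD, n = 3 each), a log2 change of 0.50 (SE 0.162), and the edgeR adjusted p of 0.0534 missed the threshold of 0.05. DESeq2 gave an adjusted p of 0.0190, and library size alone a change of 0.70 with an adjusted p of 0.00167, 2 of the 7 among 21 alternatives in which it passed.

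BBC3, a p53 target that encodes PUMA, was at 1.76, 1.96 and 2.56 scaled CPM in vehicle and at 2.0, 1.84 and 2.47 in the combination, a log2 change of 0.00 (SE 0.388). BID, the link from death receptors to mitochondria, was at 3.57, 3.10 and 2.08 in vehicle and at 2.34, 2.69 and 1.62 in the combination, a log2 change of -0.39 (SE 0.351, adjusted p = 0.741). Both overlapped between the groups.

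Across these comparisons the combination libraries differed from vehicle in depth, in the olfactory receptor sum (461.4 to 501.3 against 354.7 to 432.7 CPM) and in the share of mitochondrially encoded counts (36 to 36.5% against 40.4 to 41.8%). With the mitochondrially encoded genes left out, MCL1 (-0.37) and PMAIP1 (0.70) both still passed. TMM already corrects for composition, so leaving these genes out could change little. The parts of depth and of the mitochondrial share in the results were not tested. In the fit of all 12 libraries edgeR called 0 of 10 members in each of the 4 comparisons, against 0.00314% of genes in the combination against vehicle and 0% in the others. At an unadjusted p under 0.05 the members there numbered 2 in the combination against vehicle (3.96% of genes), 0 in radiation (4.26%), 2 in olaparib (29.4%) and 1 in the combination against radiation (3.28%). Over all genes in the 9 libraries the calls were 475 higher and 1010 lower with TMM and 2275 higher and 319 lower with library size only.

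**Figure D2:**
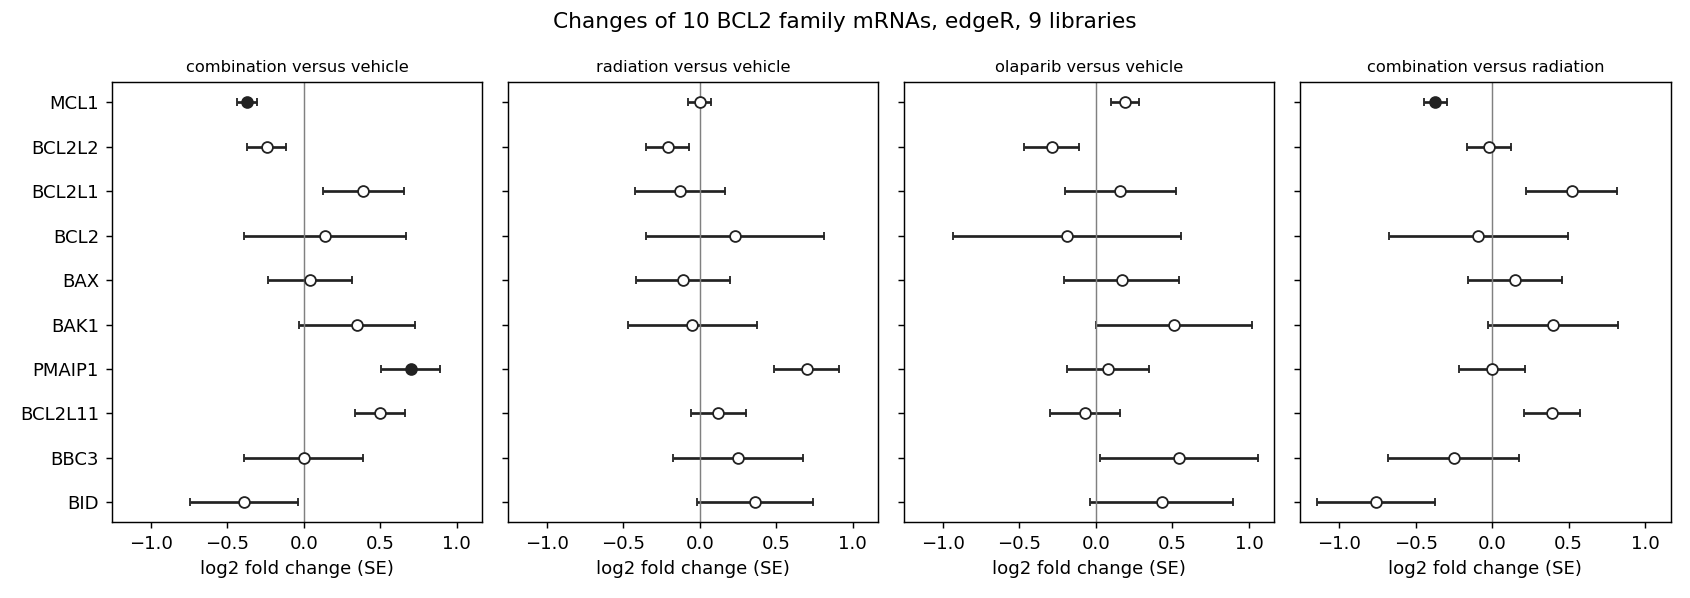
Log2 change of each member (horizontal axes) in the 4 comparisons, edgeR on 9 libraries. Bars are SE and filled points have an adjusted p under 0.05; MCL1 is filled at -0.37 in both comparisons of the combination and PMAIP1 at 0.70 against vehicle, and the bars are shortest for MCL1, the member with the most counts.

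After radiation alone, no member passed the test: 0 of 10, against 1.1% of all genes by the same rule in edgeR. At an unadjusted p under 0.05 there was 1 member, PMAIP1, against 9.68% of genes. DESeq2 and edgeR with library size only each called 1 member, and limma-voom called 0. PMAIP1 was at 11.3 and 12.1 scaled CPM in the radiation libraries, above all 3 vehicle libraries (6.82 to 7.53). Its log2 change of 0.70 (SE 0.212) equalled that of the combination, with an adjusted p of 0.0884 in edgeR, 0.0422 in DESeq2 and 0.0191 with library size only (change 0.81). MCL1 had 340 and 306 scaled CPM, on both sides of the vehicle mean of 323, and a log2 change of 0.00 (SE 0.0757).

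The other members overlapped between radiation and vehicle except BCL2L2. BCL2L2 was at 23.7 and 22.3 scaled CPM, below all vehicle libraries (25.7 to 28.4), with a log2 change of -0.21 (SE 0.142, adjusted p = 0.689). Radiation and vehicle did not overlap for 2 of 10 members, against 25.2% of all genes. BCL2L11 was at 13.1 and 12.7, inside the vehicle range of 10.9 to 13.2. BBC3 was at 2.83 and 2.16, BAX at 5.30 and 3.85, BAK1 at 2.17 and 2.13, and BID at 2.77 and 4.73 scaled CPM. BCL2L1 was at 4.77 and 3.89 and BCL2 at 1.63 and 1.39. Log2 changes of these 7 members ran from -0.13 for BCL2L1 to 0.36 for BID, each within 1 SE of 0.

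Olaparib alone rests on 1 library, which was assumed to vary like the other groups. No member passed the test, 0 of 10 against 0.0678% of all genes, and limma-voom and DESeq2 called 0 as well. At an unadjusted p under 0.05 there was 1 member, MCL1, against 3.34% of genes. MCL1 was at 368 scaled CPM, above all vehicle libraries (log2 change 0.19, SE 0.0945, adjusted p = 1). PMAIP1 was at 7.60 and BCL2L11 at 11.3 scaled CPM, close to the vehicle means of 7.20 and 11.9. The single library lay outside the vehicle range for 6 of the 10 members, against 45.5% of all genes: above it for MCL1, PMAIP1, BAK1 (3.15), BBC3 (3.05) and BID (3.92), and below it for BCL2L2 (21.9). BCL2L11 (11.3), BCL2L1 (5.28), BCL2 (1.13) and BAX (5.57) lay within the vehicle range.

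Olaparib given with radiation was then set against radiation alone, a comparison that shares its combination libraries with the first. At an unadjusted p under 0.05 there were 2 members, against 9.54% of genes. MCL1 fell, and was 1 of 10 members called, against 0.568% of all genes: from 340 and 306 scaled CPM to 240, 246 and 265, a log2 change of -0.37 (SE 0.0753, edgeR adjusted p = 0.00342). Without the first radiation library the change was -0.29 and the adjusted p 0.291, and with 12 libraries and the olfactory receptor covariate they were -0.29 and 0.140. Radiation 3, set apart, held MCL1 at 225 scaled CPM, below all 3 combination libraries. In the fit of all 12 libraries without the covariate, the change of MCL1 was -0.22 and did not pass. PMAIP1 had the same mean of 11.7 in both groups, a log2 change of 0.00 (SE 0.213), with 11.3 and 12.1 inside the combination range of 10.4 to 14.1.

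The groups did not overlap for 4 of 10 members, against 24.1% of all genes: MCL1, BCL2L11, BCL2L1 and BID. BCL2L11 was higher in all 3 combination libraries than in both radiation libraries (log2 change 0.39, SE 0.182, adjusted p = 0.481). BCL2L1 was higher likewise (0.52, SE 0.298, adjusted p = 0.600). BID was lower in all 3 (-0.76, SE 0.384, adjusted p = 0.530). None of these 3 passed the test. BCL2L2, BCL2, BAX, BAK1 and BBC3 overlapped, with changes from -0.25 for BBC3 to 0.40 for BAK1.

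A contrast chosen after the values were seen set the mean of the radiation and combination groups against the mean of the vehicle and olaparib groups. Each group had the same weight, so in the 9 libraries the 1 olaparib library counted as much as the 3 vehicle libraries. Radiation alone against vehicle gave MCL1 a log2 change of 0.00 (SE 0.0757), so its value in this contrast is not a fall under radiation alone. In the 9 libraries PMAIP1 was 0.66 higher on the log2 scale after radiation (SE 0.176, edgeR adjusted p = 0.0154) and the log2 change of MCL1 was -0.28 (SE 0.0604, adjusted p = 0.00145), 2 of 10 members called against 3.44% of genes. PMAIP1 was the only member whose 6 irradiated libraries all lay above its 6 unirradiated libraries when the 3 set apart were included, at 7.64 to 14.1 against 4.28 to 7.60 scaled CPM, a separation shared by 0.499% of all genes. Without scaling factors the ranges were 9.02 to 15.2 and 6.25 to 7.45 CPM, and 1.98% of genes were separated in this way. MCL1 did not pass with library size only (-0.16, adjusted p = 0.112), with 12 libraries (0.00, adjusted p = 1) or with both changes (-0.02, adjusted p = 0.958). For PMAIP1 the 12-library fit gave a log2 change of 0.82 with an adjusted p of 0.313, and 0.77 with an adjusted p of 0.0137 with library size only. The separation on the scaled values was narrow, since radiation 3 at 7.64 lay next to the olaparib library at 7.60.

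The interaction, also chosen after the values were seen, is the log2 change from olaparib to the combination minus that from vehicle to radiation. For MCL1 in the 9 libraries it was -0.56 (SE 0.120, edgeR adjusted p = 0.0129), and 0.2% of all genes passed. MCL1 was the only member past this test. It rests on the 1 olaparib library at 368 scaled CPM, and it did not hold with the libraries set apart. In the 12-library fit the interaction had the opposite sign, at 0.29 (adjusted p = 0.678), as the olaparib libraries set apart held 167 and 143 scaled CPM, and with library size only it was -0.09 (adjusted p = 0.802).

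On the common scale MCL1 and BCL2L2 were lower in each library set apart than in any vehicle library, and PMAIP1 and BCL2L11 were lower in olaparib 2 and 3 but not in radiation 3. MCL1 was at 167 and 143 in olaparib 2 and 3 and at 225 in radiation 3. PMAIP1 was at 4.28, 4.34 and 7.64, BCL2L11 at 6.78, 8.37 and 13.2, and BCL2L2 at 11.8, 10.9 and 17.9 scaled CPM. BCL2, in contrast, was at 4.09, 5.04 and 2.31 and BID at 4.28, 4.38 and 3.85, above every vehicle library. Without scaling factors PMAIP1 was at 6.38 and 6.91 CPM in olaparib 2 and 3, inside the vehicle range of 6.25 to 7.11. BCL2L11 was at 10.1 and 13.3 CPM there, against 10 to 12.4 in vehicle. Neither gene was thus below vehicle on that scale, while MCL1 and BCL2L2 still were. The scaled levels move with the olfactory receptor sum, and the part of background in them was not tested.

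Ratios of counts within a library do not depend on the scaling. The pairs were picked from the members and were not among the planned tests. Ratios of MCL1 to PMAIP1 or BCL2L11 combine the member values given above, so they restate those values and add no separate evidence. The ratio of MCL1 to PMAIP1 counts was 42.0, 43.3 and 49.7 in the vehicle libraries and 48.5 in the olaparib library. It was 30.0 and 25.3 after radiation, and the combination libraries had 23.1, 23.2 and 18.8. Every irradiated library lay below every unirradiated one, also among those set apart (39.1 and 32.9 for olaparib, 29.5 for radiation). The means were 45.0 ± 4.12 in vehicle and 21.7 ± 2.51 in the combination (SD, n = 3 each).

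The ratio of MCL1 to BCL2L11 counts was 24.0, 27.3 and 31.0 in vehicle and 32.7 in the olaparib library. It was 26 and 24.2 after radiation, and the combination libraries had 13.6, 14.8 and 16.3. The combination libraries lay below all 9 others, of which the lowest were 17.0 and 17.1 in libraries set apart. The ratio of BCL2L1 to BCL2L11 was 0.319 to 0.557 in vehicle and 0.322 to 0.434 in the combination and overlapped. The other 3 ratios computed overlapped as well: BCL2L1 to BAK1 had means of 2.14 in vehicle and 2.44 in the combination, BCL2 to BBC3 of 0.623 and 0.726, and BCL2L2 to BAX of 5.57 and 4.78. Raw count ratios are not per length, so only their differences between libraries are read. The mean log2 CPM of the 4 pro-survival members minus that of the 6 pro-death members was 1.81 ± 0.33 in vehicle and 1.60 ± 0.12 in the combination (SD, n = 3 each), with overlapping libraries (1.44 to 2.05 against 1.46 to 1.68).

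**Figure D3:**
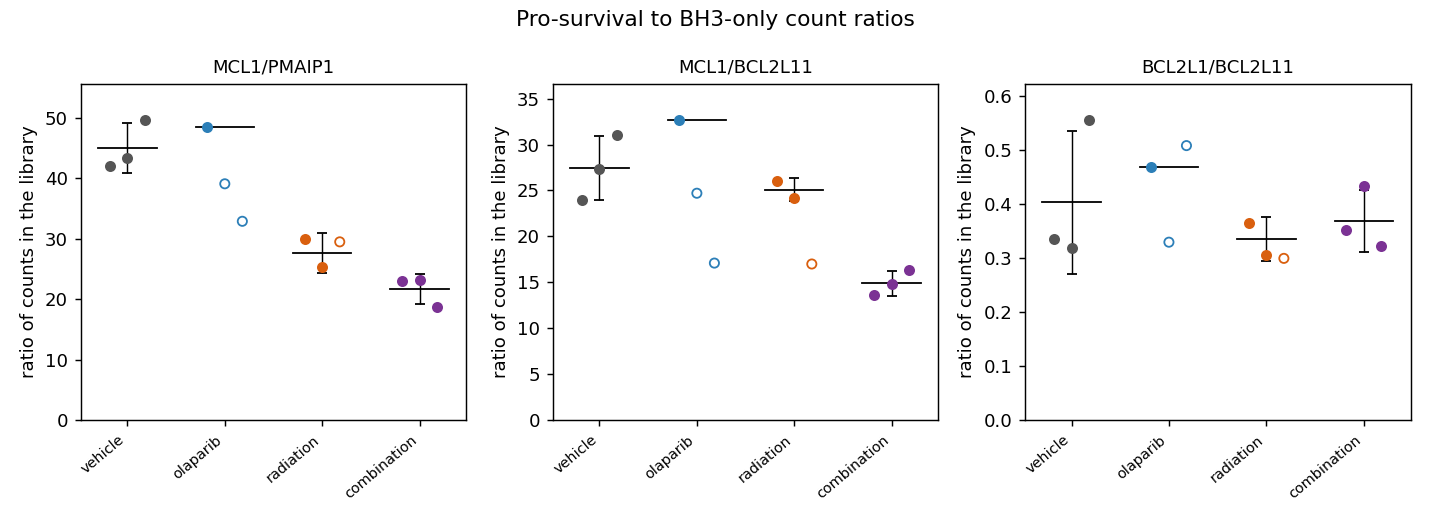
Ratio of the estimated counts of a pro-survival to a BH3-only member within each library (vertical axes from 0), by group. Filled points are the 9 libraries tested, open points the 3 set apart, bars the mean with the SD; MCL1 to BCL2L11 is 13.6 to 16.3 in the combination and at least 17.0 elsewhere, while BCL2L1 to BCL2L11 overlaps between vehicle and combination.

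The other genes of the pathway were taken from lists chosen with earlier results of these data known. Shares of called genes are to be read against 4.8% of all genes in the combination against vehicle and 1.1% in radiation against vehicle. With the stricter count filter 1535 and 348 of 19276 genes were called in those comparisons, in that order. Of the other BCL2 family, 14 of 15 genes were tested, and in the combination against vehicle 0 were higher and 1 lower: BNIP3, a mitophagy receptor, at -0.25 (adjusted p = 0.0120). BCL2A1 was at 0 counts in 8 of the 9 libraries and was not tested. Of 20 genes of the apoptosome, caspases and inhibitors of apoptosis, 0 were higher and 1 lower, the caspase inhibitor XIAP at -0.29 (adjusted p = 0.00953), a share near that of all genes. Of 10 genes of death receptors, their ligands and downstream proteins none passed. The smallest unadjusted p was that of the ligand FASLG (0.126, log2 change -1.34). After radiation no gene of these 3 lists passed, and the smallest unadjusted p values were those of BCL2L15 (0.0644, log2 change -1.57), the giant inhibitor of apoptosis BIRC6 (0.0313, 0.16) and the death receptor adaptor FADD (0.033, -1.27).

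In a list of 14 partners at mitochondrial membranes and related genes, the calcium channel ITPR2 was higher (0.55, adjusted p = 0.0190) in the combination. The BAK1-binding channel VDAC2 was lower there (-0.32, adjusted p = 0.00585). ITPR2 was higher after radiation too (0.64, adjusted p = 0.0329), the only call of this list there. Of 13 genes of MCL1 and BIM protein turnover, 1 was higher and 1 lower, against 1.53% and 3.26% of all genes. USP9X, which removes ubiquitin from MCL1, went from 308 to 423 scaled CPM (0.46, SE 0.0652, adjusted p = 2.37e-07), and HUWE1, a ubiquitin ligase of MCL1, from 455 to 374 (-0.28, adjusted p = 0.00281). After radiation USP9X was at 398 (0.37, adjusted p = 0.000681) and HUWE1 at 361 (-0.34, adjusted p = 0.00542). All 3 combination libraries of USP9X (415 to 434) and both of radiation (388 and 409) lay above the vehicle libraries (293 to 320).

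A list of 15 genes held transcription factors that act on BCL2 family genes and the p53 regulators MDM2 and MDM4. In the combination 5 of the 15 were higher and 2 lower, against 1.53% and 3.26% of all genes. ATF3, a stress-induced factor of the ATF/CREB group, was at 1.88, 1.87 and 3.52 scaled CPM in vehicle and at 7.99, 9.95 and 7.27 in the combination (1.79, adjusted p = 1.53e-06), with no overlap. JUN, an AP-1 subunit, was higher (1.09, adjusted p = 0.000471). MDM4 (0.37, adjusted p = 0.000423), FOXO1 (0.35, adjusted p = 0.0255) and DDIT3 (0.34, adjusted p = 0.0152) were higher as well. FOXO3, unlike FOXO1, was lower (-0.41, adjusted p = 1.71e-05), and MYC was lower (-0.49, adjusted p = 0.0200). After radiation 4 of the 15 were higher and 0 lower, against 1.1% of all genes in either direction. They were ATF3 (1.39, adjusted p = 0.00275), JUN (0.89, adjusted p = 0.0475), DDIT3 (0.70, adjusted p = 1.82e-06) and MDM4 (0.33, adjusted p = 0.0222).

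No gene of these 6 lists passed in olaparib against vehicle or in the combination against radiation. With olaparib the smallest unadjusted p in each list was that of DFFA (0.0564, log2 change 0.20), VDAC3 (0.0572, 0.23), DYNLL2 (0.00457, -0.62), DDIT3 (0.0525, 0.25), TNFRSF10A (0.0737, at 0.0263 against 0.360 scaled CPM) and BCL2L10 (0.0565, with 12 counts against 0 in each vehicle library). In the combination against radiation it was that of DDIT3 (0.000625, -0.36, adjusted p = 0.0749), VDAC3 (0.000402, -0.35, adjusted p = 0.0595), BNIP3 (0.0106, -0.20), BIRC2 (0.0177, -0.28), DYNLL1 (0.0811, -0.21) and FADD (0.00591, 1.68). Of 11 lineage markers of small cell lung cancer 8 were tested, and 1 passed in the combination against vehicle, YAP1 at -0.41 (adjusted p = 0.000147).

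With library size only, BNIP3 (-0.05), XIAP (-0.09), VDAC2 (-0.12), HUWE1 (-0.08), MYC (-0.29) and YAP1 (-0.21, adjusted p = 0.0745) in the combination did not pass, while USP9X, ATF3, JUN and FOXO3 passed. With all 12 libraries, none of these passed. Some calls against vehicle were lost without 1 library. XIAP was lost without combination 2 (adjusted p = 0.0619), VDAC2 without combination 3 (0.0658), HUWE1 without vehicle 3 (0.0647) and BNIP3 without vehicle 3, combination 1 or combination 3 (0.0777 to 0.121). ITPR2 was lost without vehicle 1, vehicle 3 or combination 2 (0.0682 to 0.179), and MYC without vehicle 1, vehicle 3 or combination 3 (0.0932 to 0.128). FOXO1 was lost without any 1 of the vehicle and combination libraries (0.0516 to 0.115). DDIT3 was lost without vehicle 1, vehicle 2, combination 1 or combination 2 (0.0518 to 0.213). After radiation, ITPR2 was lost without any 1 of the vehicle and radiation libraries (0.0527 to 0.371), HUWE1 without vehicle 3 (0.0686) or radiation 2 (0.266), and ATF3 without vehicle 2 (0.0527) or radiation 1 (0.0944). JUN after radiation passed in 5 of 21 alternatives, MDM4 in 14 and DDIT3 in 18.

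By Pearson r of log2 CPM over the 9 libraries, among 11033 genes, the patterns most like MCL1 were PAFAH1B2 (0.985), DPYD (0.982), RPS3A (0.980) and HSPD1 (0.978). Those most like PMAIP1 were ATP6AP2 (0.986), CASP8AP2 (0.963), ZC3H8 (0.955) and RBAK (0.955). Among the members, MCL1 and BCL2L11 had r = -0.926 over the same 9 libraries, the largest absolute r of any member pair. MCL1 and PMAIP1 had r = -0.545. These values describe libraries that share group and depth.

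**Figure D4:**
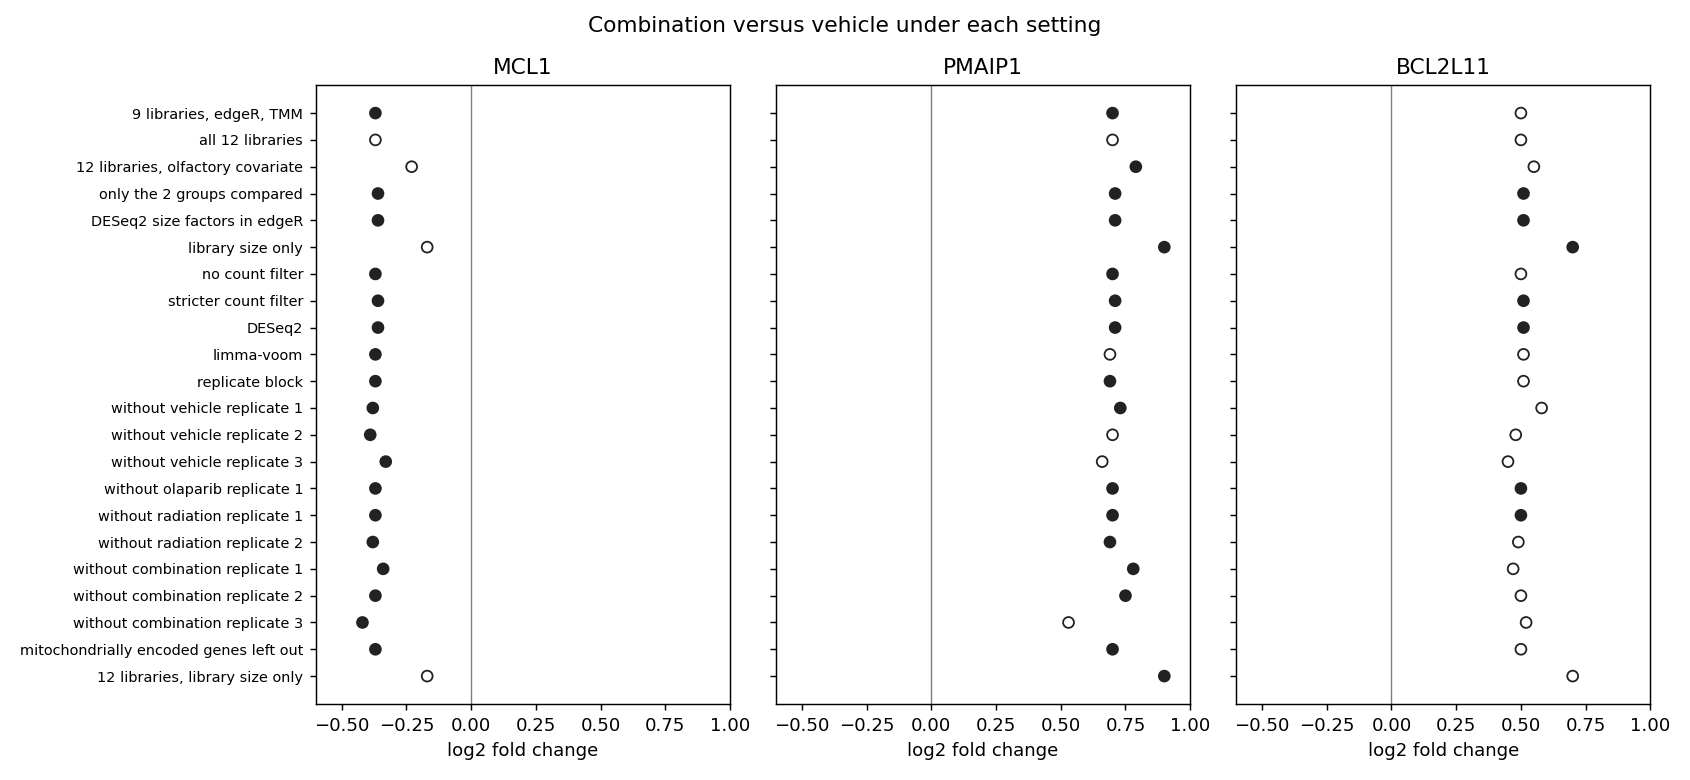
Log2 change in the combination against vehicle for MCL1, PMAIP1 and BCL2L11 (horizontal axes) under each setting of the analysis (rows). Filled points have an adjusted p under 0.05; every point lies on the same side of 0 for its gene, with PMAIP1 lowest at 0.53 without combination replicate 3 and MCL1 closest to 0 at -0.17 with library size only.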

How the data were processed

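RNA was measured in 12 total RNA libraries. The table the authors deposited holds 1 estimated count (expected count) for each gene and library, for which the submitters' processing notes name kallisto 0.46.1 and DESeq2. The transcriptome release and build used there: not given in the sources used here. Counts on 44 rows for pseudoautosomal copies on Y were added to their X counterparts, and the estimates were rounded. No column was left unmapped.

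Tests used R 4.3.3 and edgeR 4.0.16 on 9 libraries: default low count filter over the 4 groups, TMM, robust quasi-likelihood F-tests, Benjamini-Hochberg adjustment over all 30967 genes tested, threshold 0.05. The 3 libraries set apart have olfactory receptor sums over 1.5 times the median; their levels use 12-library TMM factors times 1 constant. Each SE divides the log2 change by the root of F. Levels use CPM; log2 CPM has a prior count of 2. The scripts were tested on simulated data.

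The members and lists were chosen with earlier results of these data known. All 10 members are named. Of each list, up to 2 called genes per direction and comparison with the largest change are named or, with none called, the gene with the smallest p. Of the transcription factor list all called genes are named. Likeness gave 4 genes for the MCL1 pattern and 4 for the PMAIP1 pattern, at a mean of at least 5 CPM. Alternatives were DESeq2 1.42.0, limma-voom (limma 3.58.1), other scalings and filters, all 12 libraries, the covariate, the block and each library left out. Added after the data were seen were the mitochondrial genes left out, 12 libraries with library size only, the irradiation contrast, the interaction and the CRE core.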

Additional observations from a re-analysis of the deposited data

Results flagged for a closer look

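BCL2 had a higher level in each of the 3 libraries set apart than in any vehicle library: 4.09 and 5.04 scaled CPM in olaparib 2 and 3 and 2.31 in radiation 3, against 0.538 to 1.70 in vehicle. BID likewise had 4.28 and 4.38 scaled CPM in olaparib 2 and 3 and 3.85 in radiation 3, against 2.08 to 3.57 in vehicle. Both held on unscaled CPM too. These libraries are left out of the main tests and enter only the fits named as using 12 libraries.

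For MCL1 the interaction of radiation and olaparib, chosen after the values were seen, was -0.56 on the log2 scale in the 9 libraries (edgeR adjusted p = 0.0129). It rests on 1 olaparib library and did not hold with 12 libraries (0.29, adjusted p = 0.678) or with 12 libraries and library size only (-0.09, adjusted p = 0.802).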

How the results depend on the processing

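The number of members called in the combination against vehicle, 2 in the report, was 0 with all 12 libraries, and 1 with the olfactory receptor covariate, with limma-voom and with 12 libraries and library size only. Leaving out each library in turn gave 1 to 3. Against radiation, 1 in the report, it was 0 with all 12 libraries, with the covariate and with 12 libraries and library size only, and 0 to 1 with a library left out. For radiation against vehicle, 0 in the report, it was 1 with library size only and 1 with DESeq2. The pro-survival minus pro-death difference of -0.2 ran from -0.39 to -0.09 with a library left out. The cause was not tested.

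Over the 61 gene results and 1271 alternatives run, 1073 kept direction and call, 60 had an uncalled value that changed sign, 129 lost the call, 9 gained it and 0 calls reversed. Among the scalings, library size only changed the sign of uncalled values near 0: BAK1 in radiation (0.07) and, in the combination against radiation, BCL2 (0.01), BCL2L2 (0.07) and PMAIP1 (0.09). The replicate block left the members called at 2, 0, 0 and 1 in the 4 comparisons; same-numbered libraries correlated at -0.0463 to 0.00584, and 0 of 3 vehicle and 0 of 3 combination libraries correlated best with their own number. The block moved the calls over all genes in olaparib from 21 to 43.

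Over all genes, the 1485 calls of the combination against vehicle became 1 with all 12 libraries, 829 with the covariate, 2594 with library size only and 390 with both changes. The 340 calls of radiation became 0, 195, 685 and 16 in the same order, 190 with only those groups and 200 without vehicle 2. The 21 calls of olaparib became 0 with all 12 libraries, 10 with the covariate, 1 with 12 libraries and library size only, 37 with only those groups, 39 with no count filter, 39 with DESeq2, 49 with limma-voom and 33 without vehicle 3. The 176 calls of the combination against radiation became 0, 28 and 0 with 12 libraries (plain, covariate, library size only), 64 with only those groups, 278 with no filter, 412 with DESeq2, and 38 to 447 with a library left out. Depth limits BCL2, at 13 to 53 counts in the 9 libraries.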
